A study of Mus musculus with 8 samples.

Results

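Interferon-induced antiviral genes were followed in cultured mouse muscle cells in which the long non-coding RNA Pvt1 had been silenced. A list of 50 genes was fixed by symbol, and its members were found as array spots other than controls that carried one of these names. The array held 49 of them, on 79 probes, among 24787 genes with a symbol and 56605 probes. Ifitm2 was the member with no probe of that name. The cells were C2C12, an established mouse myoblast line, at passage 10 and proliferating. Cells of both groups were transfected with Lipofectamine 2000 and GapmeRs, antisense oligonucleotides with locked nucleic acid ends that direct RNase H to the RNA they pair with. In 4 cultures the GapmeRs were directed against Pvt1, and in 4 cultures they were the supplier's negative controls, which the labels also call mock. Labels number the cultures of each group as biological replicates 1 to 4, and Cy3-labelled RNA of each was hybridised to 1 Agilent array. Since negative controls and Pvt1 GapmeRs differ in sequence as well as in target, an effect of the oligonucleotides themselves and an effect of low Pvt1 cannot be told apart with these 2 groups. All values are log2 normalized signal unless another unit is named, and levels of different probes cannot be set against each other.

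Interferons are secreted proteins that alert cells to infection. Type I interferons bind the receptor Ifnar1 and Ifnar2, whose kinases Jak1 and Tyk2 phosphorylate transcription factors such as Stat2; with Irf9 these form a complex that binds the interferon-stimulated response element in the promoters of the genes described here. Interferon gamma acts mainly through another element, the gamma-activated site. Products of the induced genes cut or edit viral RNA, block its translation, trap particles at membranes or tag proteins with the ubiquitin-like modifier Isg15. The sensors Ddx58 (RIG-I) and Ifih1 (MDA5) can also raise some of these genes through Irf3 and Irf7 without secreted interferon.

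Both GapmeRs given to the silenced cells were 16 bases long, and they are shown because they are what the silenced cells received and the controls did not.
Pvt1_1: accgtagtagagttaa
Pvt1_3: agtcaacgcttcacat
The letters opposite to each whole oligonucleotide were found in 0 of 56605 probe sequences on the array. Each GapmeR holds 1 CpG.

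Promoters were examined for 36 members with a RefSeq window, which ran from 250 bases before to 50 bases after the start of the gene on build GRCm38.p6; the other 14 were not analysed here. The core of the interferon-stimulated response element, GAAANNGAAA on either strand, was present in 20 of 36 members (55.6%) and in 3.99% of 27025 genes with a window. The gamma-activated site TTCNNNGAA was present in 10 of 36 members (27.8%) and in 9.55% of all genes. Below are stretches around the match nearest the start, in the orientation of the gene, for members that were higher in silenced cells, with the response element in capitals.
Isg15 (chr4:156200830-156200929, minus strand): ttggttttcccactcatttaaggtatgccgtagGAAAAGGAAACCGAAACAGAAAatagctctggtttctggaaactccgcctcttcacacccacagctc
Ifit1 (chr19:34640759-34640858, plus strand): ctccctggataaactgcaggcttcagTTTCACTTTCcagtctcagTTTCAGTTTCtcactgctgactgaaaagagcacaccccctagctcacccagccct
Ifit3 (chr19:34583362-34583461, plus strand): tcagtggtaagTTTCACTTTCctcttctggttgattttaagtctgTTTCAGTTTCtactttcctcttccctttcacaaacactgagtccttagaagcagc
Rsad2 (chr12:26456518-26456617, minus strand): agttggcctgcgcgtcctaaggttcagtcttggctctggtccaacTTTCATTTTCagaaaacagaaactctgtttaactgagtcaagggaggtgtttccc
Stat2 (chr10:128270248-128270330, plus strand): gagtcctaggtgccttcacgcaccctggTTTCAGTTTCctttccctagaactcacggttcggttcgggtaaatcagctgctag
Igtp (chr11:58199477-58199555, plus strand): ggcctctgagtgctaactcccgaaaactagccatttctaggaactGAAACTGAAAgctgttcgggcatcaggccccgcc
In Isg15 several matches overlap one another, which is why its capitals run on. Being well above background is a flag that the image analysis program sets for each spot. The same letters also stood before the start of members that reached that level on no array, of which 3 are shown for comparison.
Oas3 (chr5:120777680-120777779, minus strand): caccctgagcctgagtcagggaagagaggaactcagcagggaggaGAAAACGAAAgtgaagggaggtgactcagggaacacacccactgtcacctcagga
Gbp2 (chr3:142620559-142620658, plus strand): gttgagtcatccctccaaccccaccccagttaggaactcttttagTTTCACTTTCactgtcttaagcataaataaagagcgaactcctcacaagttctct
Irgm2 (chr11:58214868-58214967, plus strand): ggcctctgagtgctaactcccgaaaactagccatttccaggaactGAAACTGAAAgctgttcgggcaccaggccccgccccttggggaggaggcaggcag
Igtp and Irgm2, which neighbour each other on chromosome 11, shared nearly the whole stretch. Of members that were called higher or were well above background in silenced cells only, with a bound on the fold, 6 of 13 with a window held the element. Among other members above background it was 7 of 14, and among members above background nowhere 6 of 8; Ifitm2, which has a window and no probe, also held it. By this grouping the share with the element was no higher among the members that rose. Members called higher only without masking, and with no bound on the fold, were not counted as risen. No match in Oasl1, Oasl2, Ifitm1, Xaf1, Ifi35, Dtx3l or Lgals3bp says only that these letters are not in the window.

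The target of the silencing was examined first. Pvt1 signal was 9.65, 9.79, 10.31 and 9.71 on control arrays 1 to 4 and 7.09, 6.69, 7.85 and 6.39 on silenced arrays 1 to 4. Every silenced array lay below every control array. It fell by 2.86 on the log2 scale (SE 0.32, limma adjusted p = 0.000682).

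Of 59305 spots other than controls on each array, 58.8% to 62.5% were positive and significant over background in controls and 51.6% to 61.0% in silenced cells, the lowest value being that of silenced replicate 4. Signals were made comparable by quantile normalization after dim spots had been set to missing. On that scale silenced replicate 4 gave the lowest of the 4 silenced values for 27 of 28 members with a value on every array (96.4%), but also for 87.4% of all probes. Control replicate 3 gave the highest control value for 22 of those 28 members, and for 48.1% of all probes. It also had the lowest mean correlation with its own group (0.9603, against 0.9797 to 0.9863 for the other arrays). Over all 28649 probes with at least 3 values in each group, 1373 were higher and 5269 lower in silenced cells, and this split depended on the scaling: cyclic loess gave 5416 and 5258, and no masking of dim spots 4990 and 4787.

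Where antiviral genes changed after Pvt1 silencing, nearly all were higher. Of 30 members that could be tested, 11 were higher and 1 was lower in silenced cells (limma, adjusted p below 0.05 over all tested probes), whereas 18 were not called. Members called higher were Oasl1, Isg15, Oasl2, Rsad2, Ifitm1, Xaf1, Ifi35, Ifi27, Lgals3bp, Dtx3l and Stat2, by 1.01 to 4.31 on the log2 scale. Over all 14646 genes tested in the same fit, 6.66% were higher and 13.4% lower. The median change was 0.72 for the 30 tested members, which ranged from -1.07 to 4.31, and -0.05 for all genes. In 10 of the 30 every silenced value lay above every control value, as it did in 7.74% of all genes. Positive changes were measured for 23 of the 30 and negative ones for 7, against 6858 and 7788 of all 14646 genes.
The test needed 3 values in each group, so that 19 members, among them Ifit1, Ifit3, Mx1 and Igtp with few or no values in controls, were left out of these counts. With no masking of dim spots all 49 could be tested, and 25 were higher and 0 lower, against 13.7% and 6.83% of 24786 genes. Of the 14 added, Bst2, Parp9, Rtp4, Samd9l, Tor3a, Ifi47 and Irgm1 had been tested with masking and not called, and the other 7 had not been tested. The median change of the 49 was then 0.96, against 0.02 for all genes. Leaving out silenced replicate 4 raised the number of members called higher from 11 to 17, and every other array left out gave 10 to 13. For all probes the number higher went from 1373 to 3563 without silenced replicate 4, and to between 683 and 1695 without any other array.

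**Figure D1:**
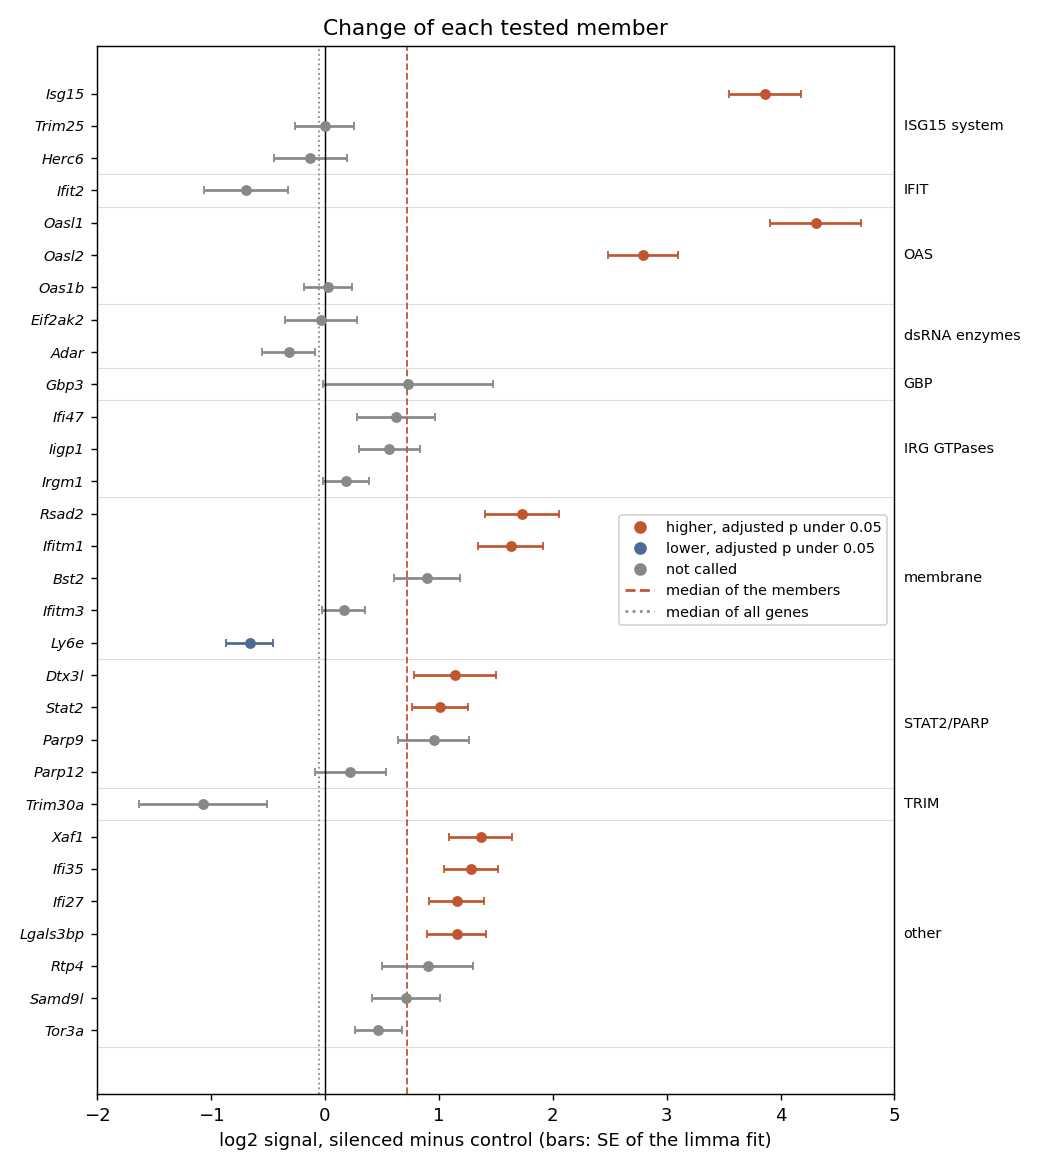
Change in log2 signal between silenced and control cells for each of the 30 tested members, grouped by function, with the standard error of the limma fit as bars. Points in orange were called higher and the 1 blue point, Ly6e, lower; the dashed line is the median of the members at 0.72 and the dotted line that of all genes at -0.05.

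Detection does not rest on the scaling between arrays. The number of members well above background was 24, 24, 24 and 27 on control arrays 1 to 4 and 32, 32, 35 and 27 on silenced arrays 1 to 4. Of all spots, 42.9%, 44.6%, 43.6% and 45.5% were so on control arrays and 42.6%, 42.8%, 43.2% and 36.8% on silenced arrays. In number of members silenced replicate 4 equalled control replicate 4, while the other silenced arrays lay above every control. The means of 24.75 ± 1.5 and 31.5 ± 3.32 (SD, n = 4 each) gave an exact two-sided permutation p of 0.0571. For 28 members with a value on every array, the median signal was 7.84, 8.31, 8.72 and 8.37 in controls and 9.70, 9.52, 9.57 and 8.80 in silenced cells. These did not overlap, and the exact permutation p of 0.0286 is the smallest that 4 against 4 arrays can give. Because members were chosen with earlier results of these data known, neither p-value can decide whether the list differs between the groups. A median of all genes on each array was not set beside that of the members.
By the probe with the highest mean of each gene, 10 of 49 members were well above background on silenced arrays only, against 4.43% of all genes. These were Ifit1, Oasl1, Oasl2 and Igtp on all 4, Ifit3, Mx1 and Rsad2 on 3, Oas1a on 2, and Parp14 and Iigp1 on 1. The pattern of all silenced and no control arrays held for 4 of 49 members and for 0.238% of 24787 genes. Trim30a was above background on 2 control arrays and on no silenced one, as 4.87% of all genes were on control arrays only. By other probes, Trim30a was above background on 2 silenced arrays and no control, and Oasl1 on 4 silenced arrays and 1 control. Other probes of Oas1b were above background on 2 controls and no silenced array and on 1 silenced array and no control, and another of Tor3a on 1 control and no silenced array. A further 22 members were above background on all 8 arrays, 12 on none, and Mx2, Gbp3, Dtx3l and Herc6 on some arrays of both groups.

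Other cell types were checked by their markers. Of 8 myoblast markers, 7 were well above background on every silenced array and 6 or 7 on control arrays. The determination factor Myod1 fell by 1.95, the intermediate filament gene Des by 1.35 and the cadherin gene Cdh15 by 0.86 (limma adjusted p 0.0013, 0.00374 and 0.0141). The summed level of the myoblast list ran from 17.12 to 17.41 in controls and from 16.67 to 17.01 in silenced cells. Of 12 macrophage markers, 5 or 6 were above background on control arrays and 4 or 5 on silenced arrays. Adgre1, Tyrobp, Aif1, Lyz2 and Mrc1 were above background on no array, Cd68 rose (1.84, adjusted p = 0.000799), and Csf1r and Itgam fell by 1.13 and 1.08 (adjusted p 0.0237 and 0.00785). Ptprc, above background on all 8 arrays, gave 9.90, 10.02, 9.57 and 10.04 in controls and 11.65, 9.73, 11.90 and 11.29 in silenced cells, a difference of 1.26 without a call (adjusted p = 0.0588). The summed level of the macrophage list ran from 12.73 to 12.88 in controls and from 12.96 to 13.40 in silenced cells.
Liver markers were listed because earlier results of these data had reported them to differ between the groups. A difference in this list was therefore known beforehand. Of 20, 3, 3, 3 and 4 were above background on control arrays 1 to 4 and 15, 15, 15 and 10 on silenced arrays 1 to 4, and 6 of 9 tested were higher and 0 lower. Their summed level ran from 10.35 to 11.04 in controls and from 12.71 to 13.01 in silenced cells. The urinary protein gene Mup1 was at least 25.0-fold and albumin (Alb) at least 10.2-fold higher. On silenced replicate 4, where the fewest liver markers of the group were detected, the members were also fewest. Of all spots too, fewest were well above background there, 36.8% against 42.6% to 43.2% on the other silenced arrays. The part of the liver transcripts in the result for the antiviral genes was not tested. In cultures measured in bulk, more cells expressing a gene and more RNA per cell cannot be told apart.

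**Figure D2:**
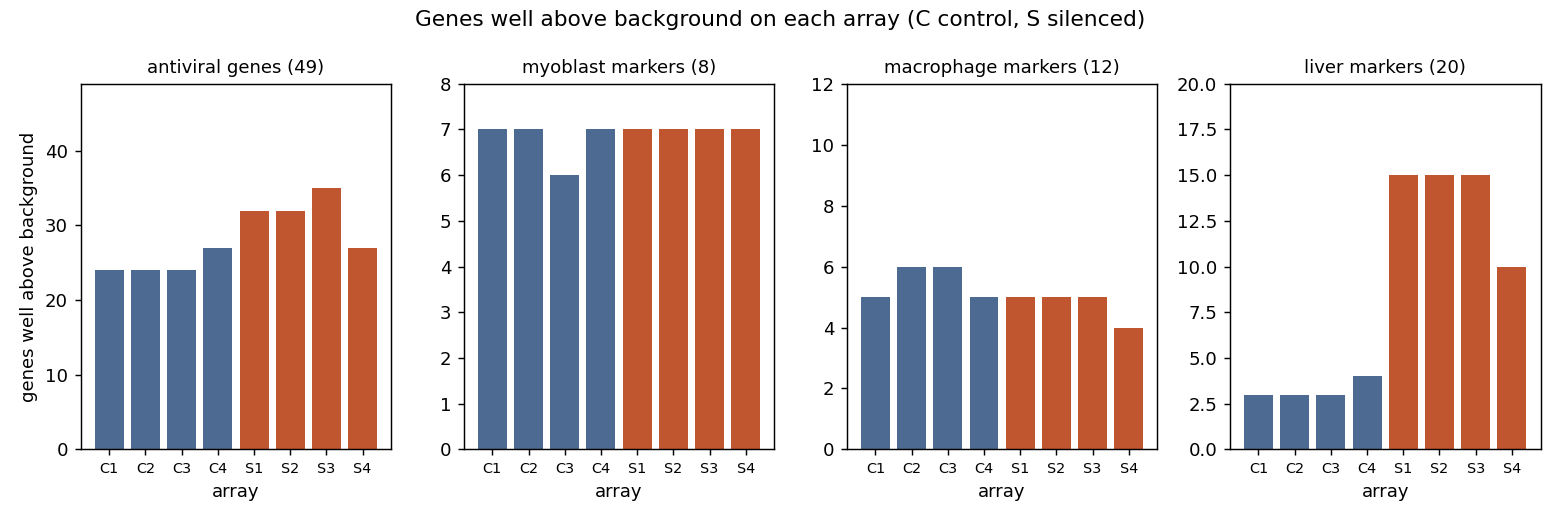
Number of genes well above background on each of the 8 arrays (C, control; S, silenced; replicates 1 to 4) for the 49 antiviral genes and for markers of myoblasts (8), macrophages (12) and liver (20). Antiviral genes numbered 24 to 27 on control and 27 to 35 on silenced arrays, and liver markers 3 or 4 and 10 to 15.

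Isg15 encodes the ubiquitin-like protein that is attached to other proteins during an interferon response. Isg15 signal (NM_015783, probe at chr4:155573649-155573708, build mm9 as for all probe positions below) was 6.76, 6.75, 7.72 and 7.62 on control arrays 1 to 4 and 11.33, 11.00, 11.48 and 10.51 on silenced arrays 1 to 4. Even the dimmest silenced array was far brighter than the brightest control array. The difference was 3.87 (SE 0.32, limma adjusted p = 0.000241), a 14.6-fold rise. On the upper row of the slide, which held controls 1 to 3 and silenced 1, it was 4.25, and on the lower row, with control 4 and silenced 2 to 4, 3.38.
No member that attaches or removes Isg15 was called. Trim25, a ligase that also ubiquitinates RIG-I, gave 13.97, 14.16, 13.26 and 14.19 in controls and 14.14, 13.89, 14.02 and 13.52 in silenced cells. These groups overlapped throughout (difference -0.002, SE 0.26, limma adjusted p = 0.996), and other probes of Trim25 differed by 0.33 and -0.28, also without a call. Herc6, the main Isg15 ligase of the mouse, differed by -0.13 (SE 0.32), and the deconjugating protease Usp18 was well above background on no array and could not be tested. Ube2l6, the conjugating enzyme that hands Isg15 on and no member of the list, was higher by 0.61 (limma adjusted p = 0.0473), a call that held in 8 of 19 alternatives, and a further probe of it was higher by 1.72 (adjusted p = 0.00563), which held in 19 of 19.

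Among the Ifit genes, whose proteins bind foreign RNA and hold back its translation, Ifit1 and Ifit3 became detectable and Ifit2 did not move in the same way. Ifit1 (NM_008331, chr19:34723827-34723886) had no value above background in controls and gave 8.25, 7.58, 8.42 and 6.65 on silenced arrays 1 to 4. It was well above background on each of the 4 silenced arrays and on 0 of 4 controls, at least 3.18-fold higher. Without masking of dim spots its controls lay between 3.86 and 3.91 and its silenced values between 7.55 and 8.27, and the difference passed the test (limma adjusted p = 6.57e-05).
Ifit3 was at 6.76, 6.41, 6.40 and 5.84 in silenced cells, well above background on 3 of 4 arrays, and had a value of 4.05 on 1 control array only. This corresponded to a fold of at least 1.23 (limma adjusted p = 9.84e-05 without masking). Ifit2, which was above background on all 8 arrays, gave 7.81, 8.21, 8.61 and 8.27 in controls and 7.90, 8.01, 7.85 and 6.36 in silenced cells. Its groups overlapped, silenced replicate 4 standing far below the other 3, and the difference of -0.69 was not called (SE 0.37, limma adjusted p = 0.21). Scaled by the 75th percentile it was called lower (0.043), and Ly6e was then not (0.106).

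In the family of oligoadenylate synthetases the calls were those of the synthetase-like genes. Oasl1, whose product limits translation of Irf7 mRNA, had 2 probes 305 bases apart. The brighter one (NM_145209, chr5:115387861-115387920) gave 4.46, 5.10, 6.16 and 5.78 in controls and 9.85, 9.62, 10.30 and 8.97 in silenced cells. All silenced arrays were above background and no control array was. The difference was 4.31 (SE 0.40, limma adjusted p = 0.000409), at least 12.3-fold. The other probe, nearer the 5′ end, rose by 1.99 (SE 0.38, adjusted p = 0.00564), so both probes rose, by different amounts.
Oasl2 (NM_011854, chr5:115362168-115362227) gave 4.04, 4.75 and 4.96 on controls 1, 3 and 4, no value on control 2, and 7.61, 7.70, 7.35 and 6.86 in silenced cells. Again no control array and every silenced array was well above background. The difference was 2.80 (SE 0.31, limma adjusted p = 0.000874), at least 2.5-fold.
Of the Oas genes themselves, whose active products make the activator of RNase L, Oas1b could be tested and was not called. Oas1b, known as the flavivirus resistance gene, encodes a protein without this activity. It gave 12.72, 12.98, 13.28 and 13.05 in controls and 13.14, 13.06, 13.26 and 12.68 in silenced cells. The groups overlapped, with a difference of 0.025 (SE 0.21, limma adjusted p = 0.949). Its other tested probe differed by -0.53 (SE 0.22, adjusted p = 0.125), with every silenced value below every control value. Oas1a, whose probe is also listed for Oas1g, was above background on 2 silenced arrays and no control. Without masking its groups did not overlap and it was called higher (limma adjusted p = 0.0114), while Oas1g, Oas2 and Oas3 were above background on none.
The Mx genes encode dynamin-like GTPases that trap viral nucleocapsids. Mx1 had no value in controls and 6.36, 6.32, 7.32 and 5.45 in silenced cells, well above background on 3 of 4, at least 1.23-fold higher (limma adjusted p = 0.000499 without masking). Another probe of Mx1 had a value of 4.73 on control 2 and none on any other array. The probe of Mx2 with the higher mean was above background on 1 control and 1 silenced array. The probe of its RefSeq transcript (NM_013606), above background on no array, had no value in controls and 5.25, 5.38, 5.92 and 4.16 in silenced cells, and was called higher without masking (limma adjusted p = 0.000853). Neither enzyme acting on double-stranded RNA was called. Eif2ak2 (PKR), the kinase that halts translation, differed by -0.036 (SE 0.32), and Adar, which edits adenosine to inosine, by -0.32 (SE 0.23). Adar gave 9.82, 9.90, 10.31 and 10.08 in controls and 9.90, 10.07, 9.59 and 9.28 in silenced cells, and these overlapped.

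Of 5 members acting at membranes, 2 were called higher and 1 lower. Rsad2 (viperin), a radical enzyme of the endoplasmic reticulum and lipid droplets that makes a chain-terminating nucleotide, gave 4.76, 5.17, 5.58 and 5.11 in controls and 7.11, 6.94, 7.50 and 6.01 in silenced cells. No control array was above background and 3 of 4 silenced arrays were, and the groups did not overlap. It rose by 1.73 (SE 0.33, limma adjusted p = 0.00557), at least 1.78-fold. Another probe of Rsad2 had no value on any array. Ifitm1, which restricts fusion of enveloped viruses, gave 9.30, 9.42, 10.33 and 9.74 in controls and 11.53, 11.53, 11.49 and 10.75 in silenced cells. Silenced arrays 1 to 3 agreed closely and replicate 4 was lower, yet above every control. The rise was 1.63 (SE 0.29, limma adjusted p = 0.00432).
Its paralog Ifitm3 gave 14.16, 14.38, 14.23 and 14.16 in controls and 14.48, 14.65, 14.24 and 14.23 in silenced cells. The groups overlapped, and the difference of 0.16 was not called (SE 0.19, limma adjusted p = 0.576). Bst2 (tetherin), which holds budding virions at the cell surface, gave 7.84, 8.38, 8.89 and 8.48 in controls and 9.55, 9.43, 9.55 and 8.64 in silenced cells. Only silenced replicate 4 lay within the range of the controls, and the difference of 0.90 (SE 0.29) missed the threshold (limma adjusted p = 0.0526), which it passed in 10 of 21 alternatives, without that array (0.0132) and with no masking (0.00422) among them.
Ly6e, a lipid-anchored surface protein that favours entry of some viruses and blocks coronaviruses, was the member called lower. Ly6e signal was 14.95, 15.14, 15.03 and 15.11 in controls and 14.48, 14.67, 13.97 and 14.47 in silenced cells. Every silenced array lay below every control, and the fall was by 0.66 (SE 0.21, limma adjusted p = 0.0445). The call was lost in 14 of 21 alternatives, with cyclic loess and no masking of dim spots among them (adjusted p 0.0736 and 0.22), and without any 1 of the controls or without silenced replicate 1 or 3 (0.0591 to 0.13).

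**Figure D3:**
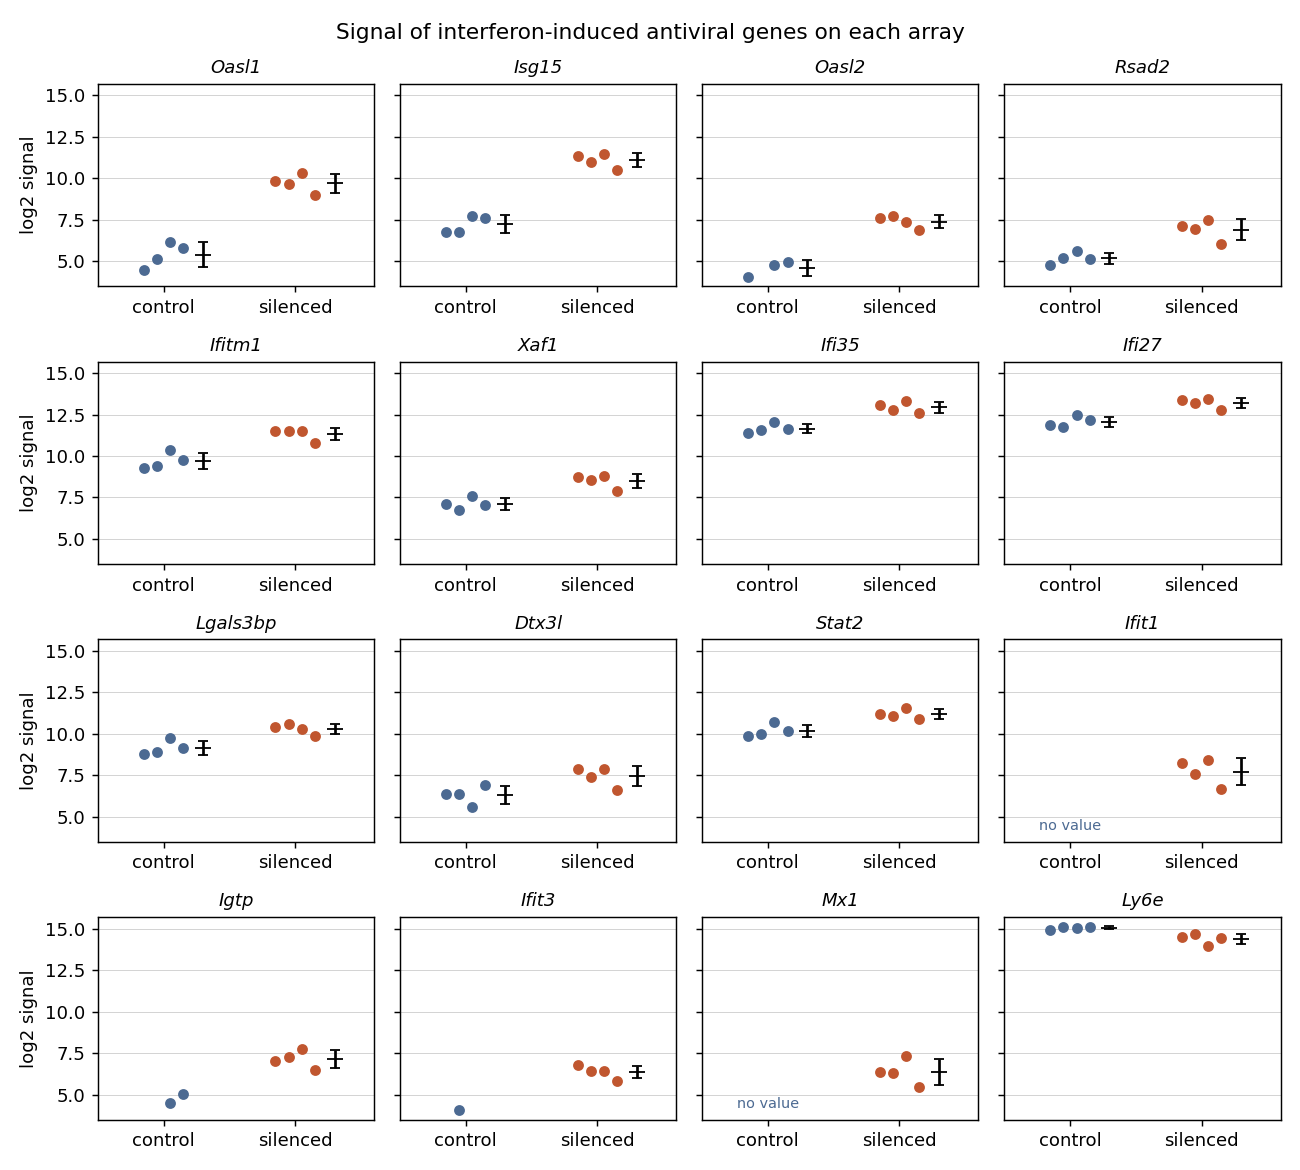
Log2 signal of 16 antiviral genes on each array: blue points are the 4 control and orange points the 4 silenced arrays, in replicate order from left to right, and black bars give mean and SD where at least 3 values exist. For Oasl1, Isg15, Oasl2 and Rsad2 all silenced arrays lie above all controls, Ifit1 and Mx1 have no value in controls, and Ly6e lies lower in silenced cells.

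Stat2, the interferon-specific subunit of the transcription factor that binds the response element, was higher together with Dtx3l, a ubiquitin ligase. Stat2 signal was 9.89, 10.01, 10.71 and 10.15 in controls and 11.21, 11.09, 11.59 and 10.90 in silenced cells. The groups did not overlap, although control 3 came close to silenced replicate 4. It rose by 1.01 (SE 0.25, limma adjusted p = 0.0174), a call that was lost when the slide row was fitted as a block (0.0696) or without control replicate 1, 2 or 4 (0.0515, 0.0626 and 0.0576).
Dtx3l gave 6.34, 6.36, 5.60 and 6.88 in controls and 7.88, 7.38, 7.90 and 6.60 in silenced cells, with control 4 above silenced replicate 4. The difference was 1.14 (SE 0.36, limma adjusted p = 0.0445). Another probe of Dtx3l (AK090152) differed by 0.072 (adjusted p = 0.921). The call of the first probe was lost in 10 of 21 alternatives, among them a block for slide row (0.142) and the omission of any 1 of control replicates 1 to 3 or silenced replicates 1 to 3 (0.0803 to 0.114). Parp9, the ADP-ribosyltransferase that pairs with Dtx3l, was 0.96 higher without a call (SE 0.31, limma adjusted p = 0.0527), and passed in 8 of 21 alternatives, without silenced replicate 4 (0.0223) or control replicate 3 (0.0118) and with no masking (0.0145) among them. Parp12 differed by 0.22 (SE 0.31), and Parp14 was well above background on 1 silenced array.

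Further rises were measured in members that were well above background on all 8 arrays. Ifi27, an apoptosis-related protein of mitochondria and nuclear membrane, gave 11.84, 11.75, 12.46 and 12.15 in controls and 13.38, 13.22, 13.46 and 12.77 in silenced cells. All silenced arrays lay above all controls, and it rose by 1.16 (SE 0.24, limma adjusted p = 0.00873). Ifi35, a leucine zipper protein induced by interferon, gave 11.40, 11.55, 12.04 and 11.62 and 13.08, 12.77, 13.30 and 12.57 in the same order. These groups also did not overlap, and the rise was 1.28 (SE 0.24, limma adjusted p = 0.00498). Its other probe, 667 bases nearer the 5′ end, differed by 0.35 and was not called (adjusted p = 0.302).
Xaf1, which counters the apoptosis inhibitor XIAP, gave 7.09, 6.72, 7.60 and 7.06 in controls and 8.73, 8.55, 8.79 and 7.86 in silenced cells. Every silenced array was above every control, and it rose by 1.37 (SE 0.28, limma adjusted p = 0.00754). Lgals3bp, a secreted ligand of galectin-3, rose by 1.16 (SE 0.26, limma adjusted p = 0.0118), from 8.79 to 9.73 in controls to 9.90 to 10.58 in silenced cells. Of the same group Rtp4, Samd9l and Tor3a were not called, with differences of 0.90 (SE 0.40), 0.71 (0.30) and 0.47 (0.21). They were called in 5, 6 and 4 of 21 alternatives, each with no masking among them (adjusted p 0.0359, 0.018 and 0.00508). Tor3a, an ATPase of the endoplasmic reticulum, gave 10.58, 10.60, 10.98 and 10.83 in controls and 11.41, 11.33, 11.29 and 10.85 in silenced cells, where only replicate 4 overlapped with the controls. The nucleotide kinase Cmpk2 and Ifi44 were above background on no array.

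Guanylate-binding proteins and immunity-related GTPases, which disrupt vacuoles of intracellular pathogens and are best known as targets of interferon gamma, were mostly dim, although Irgm1 and Ifi47 were above background on all 8 arrays. Gbp2, Gbp4, Gbp6, Gbp7 and Irgm2 were above background on no array, and Gbp3 on 1 array of each group. Igtp (Irgm3; NM_018738, chr11:58020927-58020986) had values of 4.50 and 5.06 on controls 3 and 4 only, and 7.03, 7.29, 7.77 and 6.51 on silenced arrays 1 to 4. All 4 silenced arrays and no control were well above background, at least 2.14-fold higher (limma adjusted p = 0.000519 without masking).
Irgm1, expressed in both groups, gave 9.51, 9.68, 9.82 and 9.76 in controls and 10.14, 9.98, 9.88 and 9.52 in silenced cells. These overlapped, and the difference was 0.19 (SE 0.20, limma adjusted p = 0.554). Ifi47 differed by 0.63 (SE 0.34) and Iigp1 by 0.57 (SE 0.27), neither called, and Iigp1 had no value on silenced replicate 4. With no masking Irgm1 and Ifi47 were called higher (adjusted p 0.0287 and 0.0279), whereas other probes of Irgm1 differed by 0.02 and -0.65 without a call.
Of the tripartite motif proteins, the cytosolic antibody receptor Trim21 was above background on no array. Trim21 had a value on 1 control and all 4 silenced arrays, and was called higher without masking (limma adjusted p = 0.0209). Trim30a had 3 probes, of which 2 could be tested, and these differed in opposite directions. The probe of its RefSeq transcript (NM_009099) gave 5.70, 6.17, 8.46 and 6.56 in controls and 6.01, 6.11, 5.76 and 4.74 in silenced cells, which overlapped widely, and differed by -1.07 (SE 0.56, limma adjusted p = 0.199). A probe for another transcript of the gene (AK089726) was 1.37 higher (SE 0.40, adjusted p = 0.0334), and no direction is given for this gene.

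The place of a probe along the transcript moved with the measured change. In 11 members with at least 2 tested probes, the probe nearer the 5′ end had the lower change in 9 (81.8%), with a median difference of -0.55. Over all 6140 such genes it was so in 69.7%, with a median of -0.42. Oasl1 with 4.31 and 1.99, Ifi27 with 1.16 and 0.73, and Ifi35 with 1.28 and 0.35, each given as the 3′ and then the 5′ probe, were examples. The part of RNA quality or transcript form in this was not tested.

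The other genes of the pathway were described by lists fixed by symbol. No interferon gene was called: 16 were on the array, 7 could be tested, and their changes ran from -0.97 to 0.18. Interferon beta (Ifnb1) gave 5.06, 5.85, 5.14 and 3.95 in controls and 5.46, 4.38, 6.27 and 4.64 in silenced cells. It was well above background on 1 silenced array, the groups overlapped, and the difference was 0.18 (SE 0.48, limma adjusted p = 0.825).
Of 11 receptor and signalling genes, 10 could be tested, and 2 were higher and 1 lower. The interferon gamma receptor subunit Ifngr1 rose by 0.69 and Stat3, which mainly serves cytokines such as interleukin 6, by 0.69 (limma adjusted p 0.0389 and 0.0458), calls that held in 10 and 9 of 19 alternatives. Stat3 calls differed by probe, since another of its probes fell by 1.49 (adjusted p = 0.0152). The kinase Tyk2 gave 8.72, 9.04, 8.82 and 9.17 in controls and 8.36, 8.25, 7.83 and 7.48 in silenced cells. All silenced arrays lay below all controls, and it fell by 0.95 (SE 0.24, adjusted p = 0.0205). Its call was lost in 6 of 19 alternatives, 3 of which left out control replicate 2 or 4 or silenced replicate 3.
Of 13 interferon regulatory factors and regulators, 12 could be tested. Irf7, the factor that amplifies type I interferon responses and is itself induced by them, gave 5.15, 5.21, 5.71 and 5.33 in controls and 8.08, 7.95, 8.53 and 7.33 in silenced cells. No control and every silenced array was well above background, and Irf7 rose by 2.62 (SE 0.28, limma adjusted p = 0.000558), at least 3.78-fold. Pias4, a SUMO ligase that restrains cytokine signalling, fell by 1.96 (adjusted p = 0.00112). Irf9 and Irf1 differed by 0.34 (SE 0.34) and 0.54 (SE 0.25), without a call. With the 40 pathway genes on the array as 1 list, 29 were tested, 3 (10.3%) were higher and 2 lower, against 6.66% and 13.4% of all genes, with a median of -0.05. Without silenced replicate 4 there were 4 higher, and without any other single array 1 higher. All probes gave 3563 and 683 to 1695 higher in these fits, against 1373 with all arrays. The number lower was 5 without control replicate 3 and 1 without control replicate 2 or 4 or silenced replicate 3. All probes gave 5732 and 2984 to 4289 lower there, against 5269 with all arrays.

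**Figure D4:**
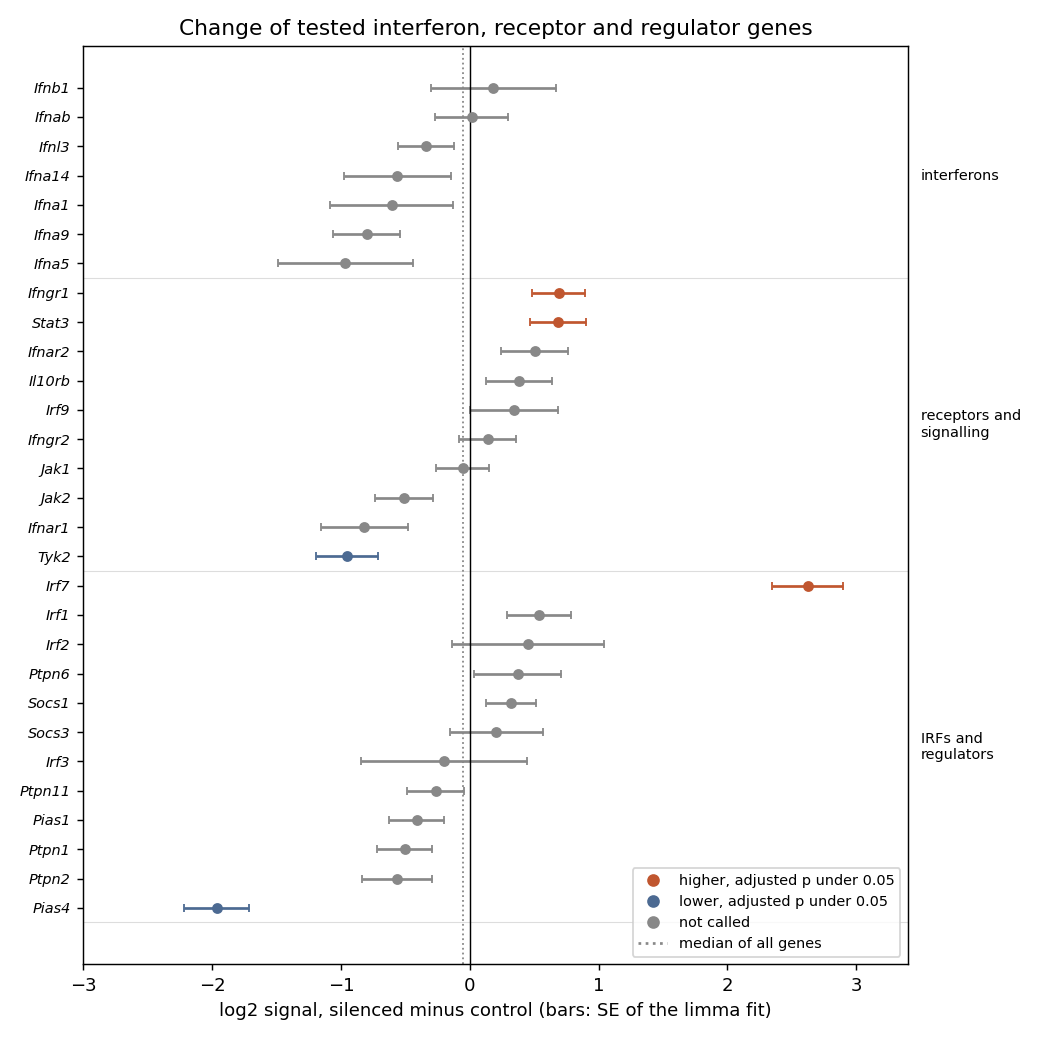
Change in log2 signal between silenced and control cells for the 29 tested genes of interferons, their receptors and signalling, and regulators, with the standard error of the limma fit as bars. Irf7 at 2.62 stands to the right, Pias4 at -1.96 to the left, and no interferon gene was called.

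A further 62 interferon-stimulated genes that are not members were on the array. Of 45 tested, 12 (26.7%) were higher and 6 lower, against 6.66% and 13.4% of all genes, with a median of -0.02. Single arrays moved this list in the direction in which they moved all probes. The number higher was 6 without control replicate 1, 2 or 4 or silenced replicate 1, 7 without silenced replicate 2 or 3, and 17 without silenced replicate 4. In the same order all probes gave 683 to 711, 740 to 863, and 3563 higher, against 1373 with all arrays. Among tested genes of this list the largest rises were those of Ifi27l2a, a relative of Ifi27, by 2.43, of the ADP-ribosyltransferase gene Parp10 by 2.25, of the RNA sensor Ifih1 by 1.75, of the helicase Mov10 by 1.37, of Tmem140 by 1.31 and of Znfx1 by 1.30 (limma adjusted p 0.000743 to 0.0267). Ifih1 was well above background on 3 silenced arrays and on 0 of 4 controls, at least 1.6-fold higher. The sensor Ddx58 rose by 1.29 (adjusted p = 0.029). Another probe of Ddx58 differed by 0.94 and another of Mov10 by -0.16, without a call (adjusted p 0.122 and 0.92). The calls held in 11 of 18 alternatives for Ifih1 and in 11 of 19 for Ddx58, in 13 of 19 for Tmem140, and those of Ifi27l2a, Parp10, Mov10 and Znfx1 in all 19.
The share called lower was close to that of all genes. Falls were those of Gbp10, whose probe is also listed for the member Gbp6, by 1.11, Lgals9, a galectin, by 0.97, and of Plscr2, Plscr1 and Pnpt1 by 0.65 to 0.87. Of 19 alternatives, the call held in 19 for Lgals9, in 16 for Plscr1, in 11 for Gbp10 and Pnpt1, and in 10 for Plscr2. Gbp10 was not called without masking (adjusted p = 0.387). Phf11d was counted as lower by its brighter probe, which fell by 1.80, while the probe of its RefSeq transcript rose by 1.66 (adjusted p = 0.0218). Shisa5 was counted as higher by its brighter probe, which rose by 0.75, while another of its probes fell by 1.34 (limma adjusted p = 0.00819). The chemokine genes Ccl5 and Cxcl10, which draw lymphocytes to infected tissue, had no value in controls and were well above background on all 4 silenced arrays. Ccl5 gave 9.22, 9.20, 9.73 and 7.72 on silenced arrays 1 to 4, at least 7.51-fold higher. Cxcl10 gave 7.59, 7.42, 8.06 and 6.45, at least 2.5-fold higher. As in the members, silenced replicate 4 was the lowest of the group for both.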

How the data were processed

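The deposited scanner files hold the spot intensity of 8 one-colour Agilent arrays, 4 control and 4 silenced, all on 1 slide and from 1 scan. Per the file headers, Feature Extraction 12.0.0.7 produced the processed intensity, corrected for background and spatial trend, while the labels name version 10.7.3.1. Probe positions are on build mm9. The deposited flags (0 or 1) for spots positive and significant, well above background, or outlying were also used. The authors' series table held intensity already normalized between arrays for 47757 spots, with equal medians of 52.9 on every array, and served as an alternative.

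Control and outlier spots were left out, spots not positive and significant were masked, log2 values of the deposited intensity were quantile normalized and spots of one probe averaged, as the study's methods describe for the mask, normalization and averaging. A probe needed 3 values or more in both groups. Silenced minus control was then fitted by lmFit and eBayes (limma 3.58.1 under R 4.3.3), with Benjamini-Hochberg adjustment over 28649 probes at 0.05. Replicates were treated as separate cultures, as the labels call them biological replicates, and their number limits the precision. A gene was represented by its probe with the highest mean over 8 arrays. A fold "at least" compares the bright group with a floor set for every array of the dim group: the lowest signal flagged well above background there, or the probe's own signal where that was higher. Single values were compared by exact two-sided permutation over arrays. Python 3.11.15, pandas and matplotlib drew the figures.

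Members and lists were chosen with earlier results of these data known. Values on each array are given for called members (up to 8 per direction by size), members above background on all arrays of 1 group only, and the 6 brightest members not called; up to 6 called genes are named of each other list. Lgals3bp, Stat2, Dtx3l, Ifit2, Bst2 and Trim30a were described beyond this rule after their values were seen, as were Ifit3, Mx1, Ddx58, Ube2l6, Shisa5, Ccl5 and Cxcl10, and the results of Oas1a, Mx2 and Trim21 without masking. On data simulated for silenced against control over 28649 probes with a seeded set of changed probes, the fit recovered 86% of changes of 2 log2 and 8% of changes of 1 log2, with 5 unchanged among 99 calls. That simulation gave 99 calls, where the measured data gave 1373 higher and 5269 lower. Its adjusted threshold was therefore stricter, and the shares recovered do not carry over to members not called here. Promoter windows are from RefSeq (GRCm38.p6). For 1 gene of the signalling list no result is reported here, and it is not in the counts. Exon and UTR annotation of the probes was not used.

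Alternatives to these choices were scaling by the 75th percentile or by cyclic loess, normexp (offset 50), the authors' series table, no mask and a stricter one, probes with 8 values, a block for slide row or for replicate number, a robust trended prior, each array left out, the methods' t-test (two-sided with unequal variance, as the study states for these arrays, here with Benjamini-Hochberg adjustment), and other choices of probe for a gene.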

Additional observations from a re-analysis of the deposited data

Results flagged for a closer look

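Within each group of 4 arrays, a value was judged by its gap to the nearest other value, divided by the group's range. It was singled out where this share exceeded Dixon's limit for 4 samples, which chance gives in about 1 in 20 groups. Of 66 groups examined, 8 passed. Silenced replicate 4 stood below the other silenced arrays for Ifit2 (6.36, others 7.85 to 8.01), Ifitm1 (10.75, others 11.49 to 11.53), Bst2 (8.64, others 9.42 to 9.55), Parp9 (7.31, others 8.03 to 8.12) and Herc6 (5.59, others 6.68 to 6.81). This array had the fewest positive and significant spots (51.6%) and gave the lowest silenced value for 87.4% of all probes on the same scale.

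Control replicate 4 was high for Gbp3 (7.61, others 4.02 to 4.44), and on it 27 members were well above background, against 24 on each of the other controls. Control replicate 1 was low for Eif2ak2 (8.35, others 8.79 to 8.83).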

How the results depend on the processing

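Pvt1 fell in each of the 19 alternatives run, from -3.14 to -2.19. Oasl1, Isg15, Oasl2, Rsad2, Ifitm1, Xaf1, Ifi35, Ifi27 and Lgals3bp stayed higher and called in each alternative in which they were tested. The median change of the members kept its sign, from 0.44 (normexp) to 1.03 (cyclic loess). The median of all genes moved from -0.05 to 0.16 with cyclic loess.

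Members called higher numbered 11, and 19 with cyclic loess, 25 with the authors' series table and 25 with no masking. The 1 lower became 0 with cyclic loess, the series table, no masking, the slide row as a block, the methods' t-test and the mean of probes. For all probes, higher calls were 1373, and 2165 (75th percentile), 5416 (cyclic loess), 4509 (series table), 4990 (no masking), 534 (slide row) and 566 (methods' t-test); lower calls were 5269, and 2573 (slide row) and 2854 (methods' t-test). Other interferon-stimulated genes were 12 higher and 6 lower, and 20 higher with the series table, 21 with no masking, 5 higher and 2 lower with the slide row, and 10 lower with the 75th percentile. Pathway genes were 3 and 2, and 8 higher (cyclic loess), 6 (series table), 6 (no masking) and 1 (slide row), and 4 lower (75th percentile), 1 (slide row), 4 (robust prior), 1 (methods' t-test) and 4 (mean of probes). With single arrays left out, members were 10 to 17 higher and 0 to 1 lower, all probes 683 to 3563 higher and 2984 to 5732 lower, other interferon-stimulated genes 6 to 17 higher and 2 to 7 lower, and pathway genes 1 to 4 higher and 1 to 5 lower. The cause was not tested; of the 14 members added with no masking, 7 had not been tested with it.

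Correlations of deviations from the group means were -0.04, 0.19, 0.22 and 0.06 for arrays of the same replicate number. For arrays of different numbers they ran from -0.19 to 0.11. Whether the numbers pair the arrays cannot be told from these values. With the replicate number as a block, members were 10 higher and 0 lower, other interferon-stimulated genes 8 and 2, pathway genes 1 and 1, and all probes 1023 and 3994.

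Signs turned for members without a call. Trim25 (-0.002) was 0.20 (75th percentile), 0.21 (cyclic loess), 0 (normexp), 0.15 (series table), 0.18 (no masking), 0.33 (3′ probe) and 0.017 (mean of probes), and -0.21 to 0.12 with single arrays left out. Herc6 (-0.13) was 0.18 (cyclic loess), 0.22 (series table) and 0.21 (no masking), and -0.26 to 0.16 with arrays left out. Eif2ak2 (-0.036) was 0.30 (cyclic loess), 0.28 (series table) and 0.28 (no masking), and -0.27 to 0.25 with arrays left out. Oas1b ran from -0.071 to 0.14 and Parp12 from -0.029 to 0.42 with arrays left out. Irgm1 was -0.15 and Trim30a 0.15 with the mean of probes, and Gbp3 -0.092 with the slide row.

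Among 49 members, 12 were well above background on no array and 19 could not be tested. On simulated data, with fewer calls and so a stricter threshold than here, 8% of changes of 1 log2 were recovered. At its unadjusted threshold the methods' t-test gave 14 members higher and 1 lower, and 2232 and 6789 of all probes, against 10 and 0, and 566 and 2854, after Benjamini-Hochberg adjustment.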
